A study of Mus musculus with 18 samples.

Results

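The transcription factor Nrf2 (gene Nfe2l2), its repressor Keap1 and 8 antioxidant genes that Nrf2 is known to activate were followed in mouse macrophages. The members were Nfe2l2, Keap1, Hmox1, Nqo1, Gclc, Gclm, Slc7a11, Txnrd1, Srxn1 and Gsr. They were chosen by symbol, and each had a single row, so that they made up 10 of the 25926 genes in the expression table. All 10 passed the filter of a mean of at least 1 FPKM in every comparison.

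The cells were macrophages grown from bone marrow (BMDMs) of mice of the C57BL/6J strain (C57BL/6 in the labels), kept with M-CSF at 50 ng/mL for 7 days. All BMDMs then sat in the upper chamber of a Transwell (pore size 0.4 μm) over renal tubular epithelial cells (TECs). NC held BMDMs given PBS over TECs without crystals. COM held BMDMs given PBS over TECs that had been exposed for 24 h to calcium oxalate monohydrate crystals at 100 μg/mL. COM+Met held BMDMs given Met at 5 mM for 24 h over TECs exposed to the crystals in the same way. The labels do not spell out Met, and they name no genetic change in any group. Each group had 6 samples. Neither the labels nor the methods say whether these came from separate animals or cultures, so the p-values measure the spread between samples, which may be technical. As the macrophages were cultured apart from the animal and exposed to crystals only through the TECs and the shared medium, the data describe that coculture.

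In resting cells Keap1 holds Nrf2 for ubiquitination and degradation. Oxidants and electrophiles modify cysteines of Keap1, Nrf2 then accumulates, pairs with small Maf proteins and binds antioxidant response elements in the DNA near its target genes. Because this control acts mainly on the protein, the RNA of Nfe2l2 is not a measure of Nrf2 activity. Itaconate, made in activated macrophages by the enzyme encoded by Acod1 (Irg-1), is one of the electrophiles known to modify Keap1. The targets cover heme breakdown (Hmox1), quinone reduction (Nqo1), cystine import and glutathione synthesis (Slc7a11, Gclc, Gclm), glutathione recycling (Gsr) and the thioredoxin and peroxiredoxin system (Txnrd1, Srxn1).

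Values were FPKM (fragments scaled to gene length and to the total of a sample), which do not give read depth, and their sum per sample lay between 380731 and 449186. Some libraries stood apart. Over 10751 genes, log2(FPKM + 1) values correlated at 0.989 to 0.995 within COM+Met, but at 0.888 to 0.951 between COM-1 to COM-3 and COM-4 to COM-6, and at 0.938 to 0.962 between NC-1 to NC-4 and NC-5 or NC-6. COM-6 also stood apart from COM-4 and COM-5 (0.930 to 0.935), and COM-4 and COM-5 were nearer to COM+Met (0.977 to 0.982) than COM-1 to COM-3 were (0.947 to 0.951). Results on the members and counts over the other pathway lists are therefore given with and without these libraries. All 10 macrophage markers averaged 1 FPKM or more in every group. Of 19 tubular epithelial markers, Cdh1 and Cldn1 reached that level in NC and none did in COM or COM+Met. The list summed to 17.9 to 26.4 FPKM in NC, 0.520 to 1.84 in COM and 0.143 to 0.619 in COM+Met, and Umod, Havcr1, Aqp2, Krt18 and Slc5a12 were listed at 0 in all samples.

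The proximal promoters of the members show where the letters of an antioxidant response element occur. A RefSeq table (GRCm38.p6, 250 bases before to 50 bases after a start) held 9 windows for 7 of the 10 members. Both strands were searched for TGACNNNGC, the classical element core, and for TGAGNNNGC, a variant of it that can overlap the AP-1 motif TGAGTCA. Of all 32851 windows in the table, 12.4% held TGACNNNGC, 17.6% held TGAGNNNGC, 27.8% held either and 5.2% held TGAGTCA. Of the 7 members, Nfe2l2, Srxn1, Slc7a11, Gclm and Txnrd1 held either element in 1 window each, and the windows of Nqo1 and Keap1 and the other 2 of the 3 Txnrd1 windows held neither. The stretches around these matches are printed on the strand of the gene from 5′ to 3′, with each element in capitals. The bases after the start of the Nfe2l2 window were not matched to a GENCODE M21 transcript of the gene, whereas those of the other windows were.

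Nfe2l2, chr2:75704870-75704913, minus strand: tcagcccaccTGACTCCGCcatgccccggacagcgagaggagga
Srxn1, chr2:152105341-152105512, plus strand: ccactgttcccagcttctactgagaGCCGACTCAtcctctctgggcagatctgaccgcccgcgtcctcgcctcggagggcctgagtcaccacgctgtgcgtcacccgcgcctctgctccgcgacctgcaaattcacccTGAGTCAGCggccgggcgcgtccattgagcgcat
Slc7a11, chr3:50443677-50443735, minus strand: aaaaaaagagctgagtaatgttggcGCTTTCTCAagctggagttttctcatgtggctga
Gclm, chr3:122245398-122245456, plus strand: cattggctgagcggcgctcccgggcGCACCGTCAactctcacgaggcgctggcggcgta
Txnrd1, chr10:82859089-82859147, plus strand: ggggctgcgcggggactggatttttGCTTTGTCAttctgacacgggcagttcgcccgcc

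The matches of Slc7a11, Gclm and Txnrd1 and the upstream match of Srxn1 (158 to 150 bases before the start) read as the reverse complement of the element. The downstream match of Srxn1 (45 to 37 bases before the start) overlaps a TGAGTCA, and its window held a further TGACNNNGC match after the start, which is not shown. These are matches of letters, not measured binding sites. A window without a match says nothing of elements farther than 250 bases before the start, which were not searched.

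By level pooled over the groups, Hmox1 was the most abundant member, with a mean of 557 FPKM over the 18 samples (rank 79 of all genes), followed by Txnrd1 (198), Nfe2l2 (146), Srxn1 (135), Slc7a11 (131), Gsr (74.8), Nqo1 (67.5), Gclm (43.0), Keap1 (26.7) and Gclc (20.0, rank 3027). Neighbours in this order overlapped over the 18 samples, for example Gclc (11.7 to 40.0 FPKM) with Keap1 (11.4 to 35.2 FPKM), and Txnrd1 (140 to 278 FPKM) with Nfe2l2 (74.8 to 249 FPKM). The order did not hold in each group, as in COM+Met the mean of Nqo1 (18.3 FPKM ± 6.96, SD, n = 6) was under those of Gclm (23.3 ± 2.49) and Keap1 (31.2 ± 2.37).

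**Figure D1:**
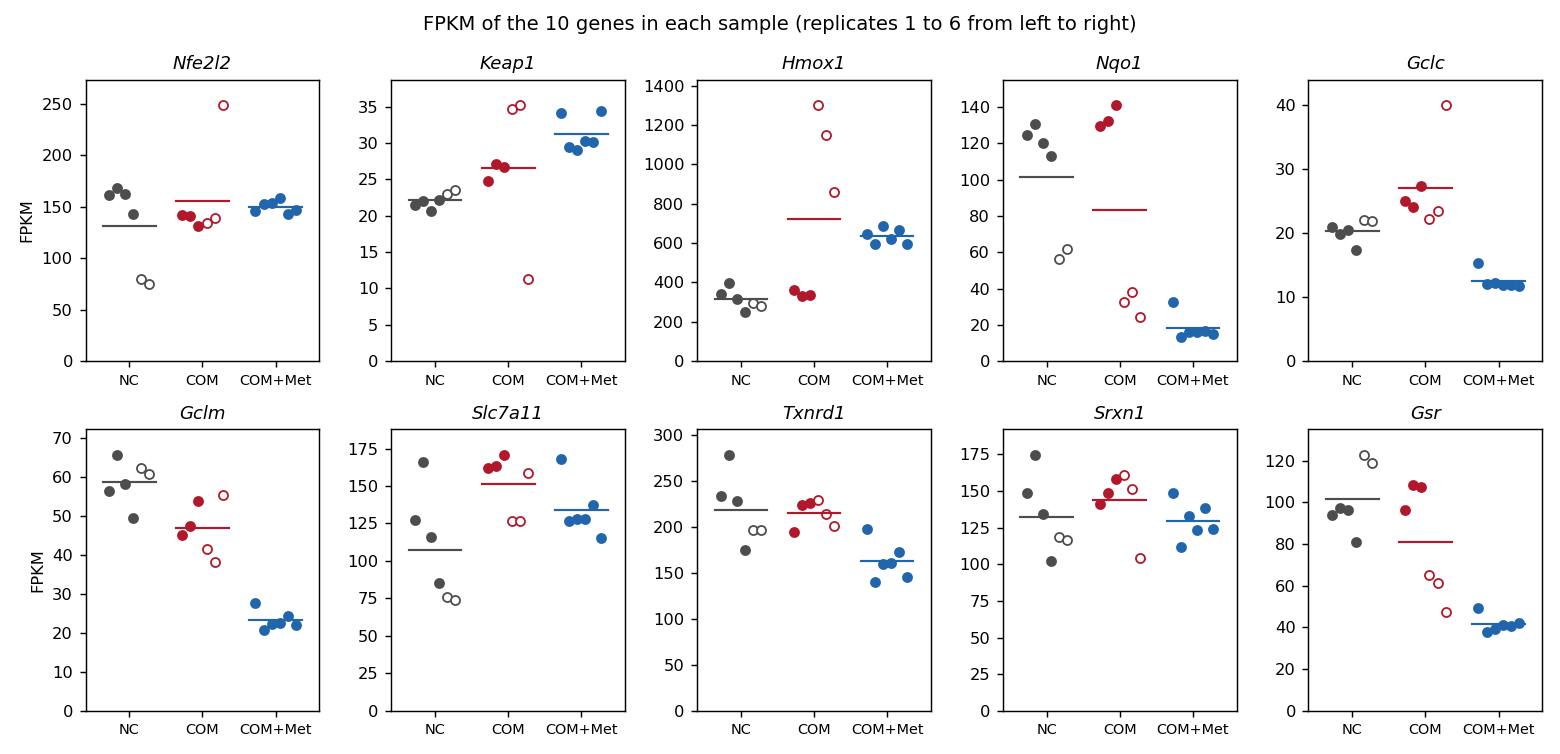
FPKM (vertical axes, from 0) of the 10 genes in NC, COM and COM+Met, with a point for each of the 6 samples of a group and a line at the group mean. Open points are NC-5, NC-6 and COM-4 to COM-6, which stood apart from the rest of their groups. For Gclc and Gclm every COM+Met point lies below every NC and COM point, and for Nqo1 and Gsr only COM-6 lies among the COM+Met points.

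The members did not move as a block. In COM against NC, Hmox1, Gclc and Slc7a11 rose and Gclm fell, while the other 6 did not pass the test (limma, Benjamini-Hochberg adjusted p below 0.05 over 10900 genes). That is 3 of 10 higher, where 12.7% of all genes tested were higher, and 1 of 10 lower, where 40.6% were lower. Between COM+Met and COM, 0 of 10 were higher (5.77% of all genes tested) and 5 of 10 were lower (7.58% of all genes tested), namely Nqo1, Gclc, Gclm, Txnrd1 and Gsr. Between COM+Met and NC, Hmox1 and Keap1 rose (2 of 10, against 19.3% of all genes tested) and Nqo1, Gclc, Gclm, Txnrd1 and Gsr fell (5 of 10, against 55.9%). The 3 comparisons share samples, so their counts are not independent of each other.

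The median log2 difference of the members was 0.15 in COM against NC, where that of all genes tested was -0.27. It was -0.29 in COM+Met against COM (all genes 0.0033) and -0.21 in COM+Met against NC (all genes -0.26). The shift of all genes depended on the scaling, as it became 0.0078 in COM against NC and 0.014 in COM+Met against NC with median-of-ratios size factors. With that scaling 4 members were higher and 0 were lower in COM against NC, where Srxn1 passed as well (0.45, adjusted p = 0.0218) and Gclm did not (-0.013, adjusted p = 0.946). Of all 10875 genes tested in that fit, 2578 were higher and 2544 lower. In COM+Met against COM, 0 members were higher and 5 lower under size factors and under quantile normalisation, as without rescaling. With size factors 882 of all 10341 genes tested were higher and 943 lower, and with quantile normalisation 953 of 10364 were higher and 929 lower.

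The calls of COM against NC depended on the libraries that stood apart. Without NC-5 and NC-6, 0 of 10 members passed in either direction, where 1156 of all 10829 genes tested were higher and 3502 lower. Without COM-4 to COM-6, Keap1, Gclc and Slc7a11 were higher and Gclm was lower. In that fit 1939 of all 10958 genes tested were higher and 4016 lower. Without COM-1 to COM-3, an alternative chosen after the values had been seen, Hmox1 was higher and Nqo1, Gclm and Gsr were lower. There 1274 of all 10900 genes tested were higher and 5475 lower. Against COM, Nqo1, Gclc, Gclm, Txnrd1 and Gsr were lower in COM+Met without COM-4 to COM-6, without COM-1 to COM-3 and without any single sample. Over all genes in that comparison, 4499 of 10373 were lower without COM-4 to COM-6 and 793 of 10211 without COM-1 to COM-3. With 1 sample left out, 541 to 1652 genes were lower.

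**Figure D2:**
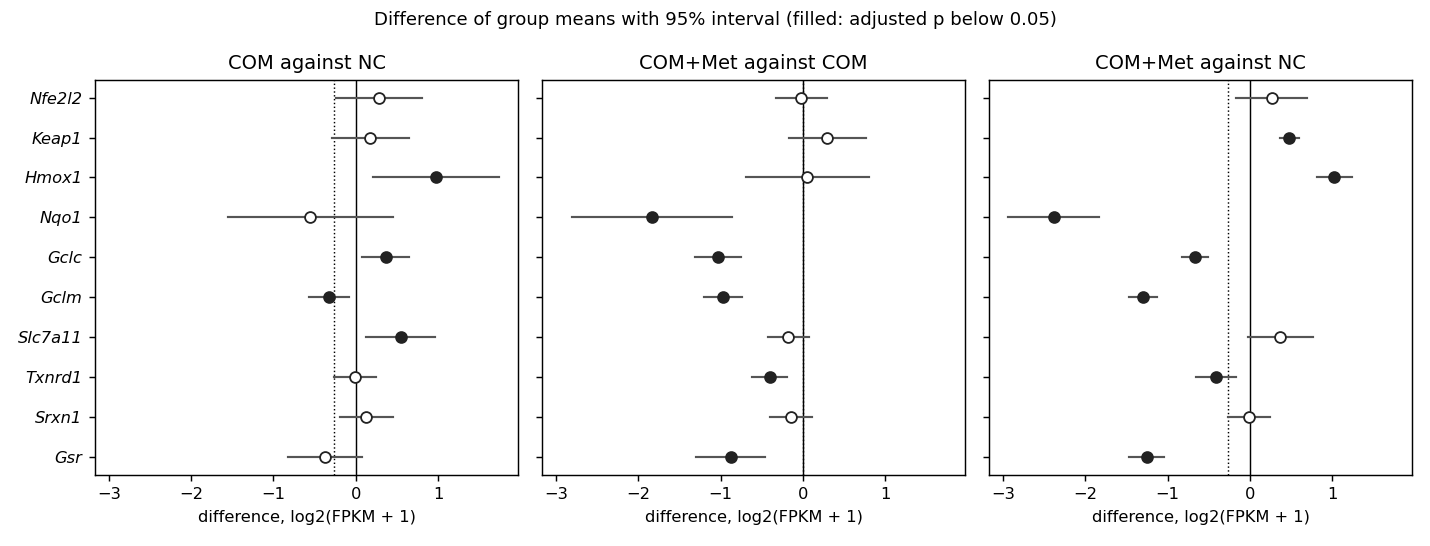
Difference of the group means of log2(FPKM + 1) for each gene (horizontal axes, log2 units) with its 95% interval, in the 3 comparisons; filled points have an adjusted p below 0.05, the solid line is 0 and the dotted line is the median of all genes tested. For COM+Met against COM the 5 filled points lie between -1.83 (Nqo1) and -0.40 (Txnrd1), and the interval of Hmox1 runs from -0.69 to 0.80.

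**Figure D3:**
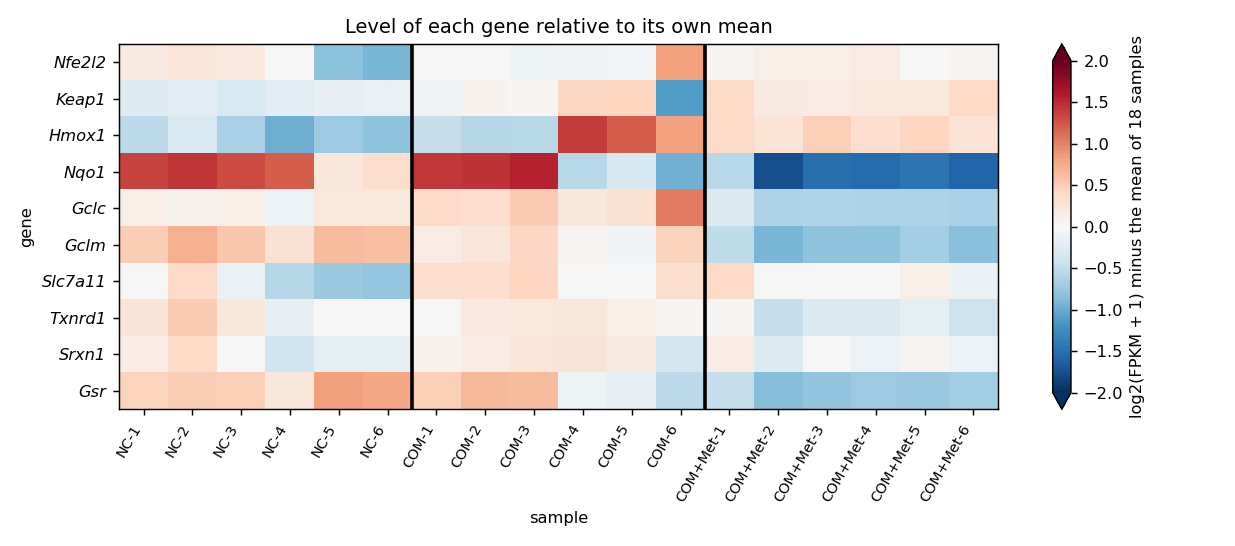
Log2(FPKM + 1) of each gene minus its own mean over 18 samples (colour, red above and blue below), with genes in rows and samples in columns, and black lines between NC, COM and COM+Met. Nqo1 and Hmox1 change colour between COM-1 to COM-3 and COM-4 to COM-6, while Gclc, Gclm and Gsr are blue in all 6 COM+Met samples.

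Nfe2l2 (chromosome 2, 75675513 to 75704641, minus strand; positions are those of GENCODE M21 on GRCm38), which encodes Nrf2 itself, was at 161, 168, 162, 143, 79.4 and 74.8 FPKM in the NC samples, in order. It was at 142, 141, 132, 134, 139 and 249 FPKM in the COM samples, and at 143 to 158 FPKM (median 150) in COM+Met. NC-5 and NC-6 were the lowest of all 18 samples and COM-6 was the highest, and the 3 groups overlapped. The log2 difference did not pass in COM against NC (0.28 ± 0.24 SE, adjusted p = 0.336, limma), in COM+Met against COM (-0.017 ± 0.14, adjusted p = 0.950) or in COM+Met against NC (0.27 ± 0.20, adjusted p = 0.239). With size factors the last of these passed (0.58, adjusted p = 0.0206). Without COM-4 to COM-6, Nfe2l2 was higher in COM+Met than in COM by 0.12 (adjusted p = 0.0320). Without NC-5 and NC-6 its difference from NC was -0.059 in COM and -0.076 in COM+Met, and neither passed.

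Keap1 (chromosome 9, 21229730 to 21239361, minus strand), the adaptor that presents Nrf2 to a Cul3 ubiquitin ligase, rose in COM+Met against NC. It was at 20.7 to 23.6 FPKM in NC (median 22.1) and at 29.1 to 34.4 FPKM in COM+Met (median 30.2). These ranges did not overlap, and the log2 difference was 0.48 ± 0.053 (SE, n = 6 and 6; limma, adjusted p = 3.22e-06). In COM-1 to COM-6 it was at 24.7, 27.2, 26.7, 34.7, 35.2 and 11.4 FPKM, so that 5 samples lay above every NC sample and COM-6 lay below every other sample of the study. COM against NC did not pass with all samples (0.18 ± 0.22, adjusted p = 0.502), and passed without COM-6 (0.39, adjusted p = 0.00462). COM+Met against COM did not pass (0.30 ± 0.22, adjusted p = 0.391), but it did without COM-4 to COM-6 (0.24, adjusted p = 0.00569). An antisense gene shares 510 of its 4693 exonic bases, and reads of the pair cannot be told apart without strand.

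Hmox1 (chromosome 8, 75093621 to 75100589, plus strand) encodes heme oxygenase-1, which breaks heme down to biliverdin, iron and carbon monoxide. It was at 343, 397, 315, 249, 298 and 281 FPKM in the NC samples, in order. In COM it was at 360, 333 and 337 FPKM in COM-1 to COM-3 but at 1300, 1148 and 860 FPKM in COM-4 to COM-6. In COM+Met it was at 646, 595, 685, 621, 667 and 595 FPKM. COM-1 to COM-3 thus lay within the range of NC, all COM+Met samples lay above all NC samples, and COM-4 to COM-6 lay above all COM+Met samples.

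Over all samples Hmox1 rose in COM against NC, with a log2 difference of 0.97 ± 0.35 (SE, n = 6 and 6; limma, adjusted p = 0.0340; exact two-sided permutation p = 0.0325). This call was lost without any single one of NC-3 to NC-6 or COM-4 to COM-6, with adjusted p-values between 0.0539 and 0.0779. It was also lost without a filter on low genes (adjusted p = 0.0588) and with sample weights, where the difference was 0.16 (adjusted p = 0.425). The difference was 0.14 (adjusted p = 0.365) without COM-4 to COM-6 and 1.80 (adjusted p = 2.77e-05) without COM-1 to COM-3. Hmox1 also rose in COM+Met against NC, by 1.03 ± 0.096 (limma, adjusted p = 5.92e-07), and the call was kept without each single sample.

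COM+Met and COM did not differ detectably in Hmox1 when all COM samples were used (0.053, 95% interval -0.69 to 0.80, adjusted p = 0.936, limma). The mean was 723 FPKM ± 439 (SD, n = 6) in COM and 635 FPKM ± 37.6 (SD, n = 6) in COM+Met. The direction depended on the COM samples used, as COM+Met was higher by 0.88 (adjusted p = 1.20e-07) without COM-4 to COM-6 and lower by -0.78 on the log2 scale (adjusted p = 0.00325) without COM-1 to COM-3. No label separates COM-1 to COM-3 from COM-4 to COM-6, and what sets these libraries apart was not tested.

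Nqo1 (chromosome 8, 107388225 to 107403206, minus strand), the quinone reductase often read as a marker of Nrf2 activity, fell in COM+Met, with the largest difference of the members over all samples. It was at 125, 131, 120 and 113 FPKM in NC-1 to NC-4 and at 56.5 and 61.7 FPKM in NC-5 and NC-6. In COM it was at 130, 133 and 141 FPKM in COM-1 to COM-3 and at 32.6, 38.3 and 24.3 FPKM in COM-4 to COM-6. In COM+Met it was at 32.3 FPKM in the sample numbered 1 and at 13.5 to 16.8 FPKM in the other 5. All COM+Met samples lay below all NC samples, and the single overlap with COM was that COM+Met-1 lay above COM-6 and close to COM-4.

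The log2 difference of Nqo1 was -1.83 ± 0.45 in COM+Met against COM (SE, n = 6 and 6; limma, adjusted p = 0.0173; exact two-sided permutation p = 0.00433). It was -2.39 ± 0.25 in COM+Met against NC (limma, adjusted p = 1.97e-06), a mean 5.52 times lower in FPKM. Its size against COM rested on the COM samples used, at -2.87 (adjusted p = 4.68e-07) without COM-4 to COM-6 and -0.80 (adjusted p = 0.0439) without COM-1 to COM-3, where Gclc and Gclm fell by more. COM against NC did not pass (-0.55 ± 0.46, adjusted p = 0.326). Its sign turned with the samples, being 0.48 (adjusted p = 0.179) without COM-4 to COM-6 and -1.59 (adjusted p = 0.00145) without COM-1 to COM-3.

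**Figure D4:**
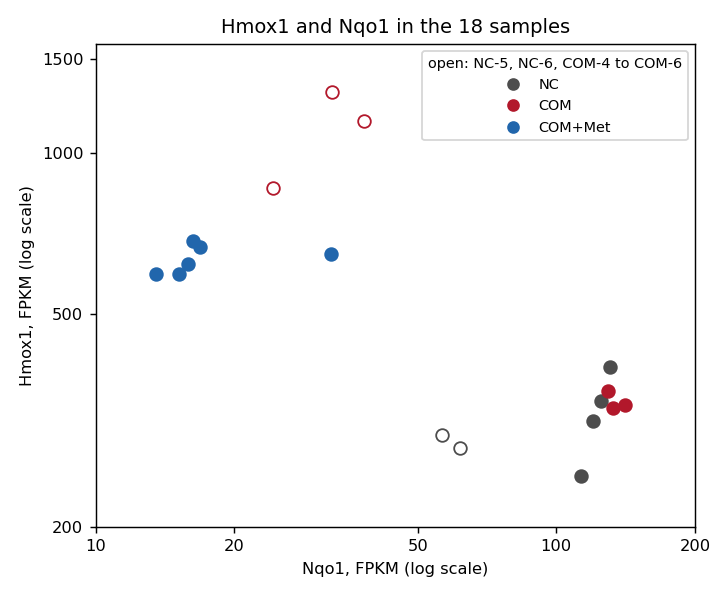
Hmox1 (vertical axis) against Nqo1 (horizontal axis) in FPKM on log scales, with a point for each of the 18 samples; open points are NC-5, NC-6 and COM-4 to COM-6. COM-1 to COM-3 lie at 130 to 141 FPKM of Nqo1, beside NC-1 to NC-4 at 113 to 131 FPKM, and the COM+Met samples and COM-4 to COM-6 lie at low Nqo1 and high Hmox1.

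Hmox1 and Nqo1, both classed as Nrf2 targets, thus differed in opposite directions between COM+Met and NC. Hmox1 is also known to be controlled by other factors, among them the repressor Bach1 and the heme level. Whether any of these had a part in the difference between Hmox1 and Nqo1 was not tested.

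Gclc (chromosome 9, 77754535 to 77794485, plus strand) encodes the catalytic subunit of glutamate-cysteine ligase, the rate-limiting enzyme of glutathione synthesis. It was at 17.3 to 22.0 FPKM in NC (median 20.7), and at 25.1, 24.0, 27.4, 22.2, 23.5 and 40.0 FPKM in the COM samples, in order. It was at 15.3 FPKM in COM+Met-1 and at 11.7 to 12.1 FPKM in the other 5 COM+Met samples. The 3 groups did not overlap, with COM the highest and COM+Met the lowest, although COM-4 lay only just above the highest NC sample.

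Gclc rose in COM against NC by 0.36 ± 0.13 on the log2 scale (limma, adjusted p = 0.0347; exact two-sided permutation p = 0.00216, the smallest this design allows). This call was lost without any single one of NC-1, NC-2, NC-3, NC-4 or COM-3 (adjusted p 0.0531 to 0.0786), and also without COM-1 to COM-3 (0.42, adjusted p = 0.0603), without NC-5 and NC-6 (0.42, adjusted p = 0.0524) and with values rescaled to TPM (adjusted p = 0.0609). In COM+Met it fell by 1.03 ± 0.13 against COM (adjusted p = 0.000403), to a mean 2.16 times lower in FPKM. That fall was nearly as large without COM-4 to COM-6 (-0.98) as without COM-1 to COM-3 (-1.09). Against NC the difference was -0.67 ± 0.073 (adjusted p = 2.59e-06).

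Gclm (chromosome 3, 122245557 to 122270732, plus strand) encodes the modifier subunit of the same enzyme, and its difference in COM had the opposite sign. It was at 49.4 to 65.6 FPKM in NC (median 59.5), at 45.0, 47.3, 53.7, 41.5, 38.2 and 55.4 FPKM in the COM samples, in order, and at 20.6 to 27.7 FPKM in COM+Met (median 22.4). COM overlapped NC in COM-3 and COM-6, whereas every COM+Met sample lay below every COM and NC sample.

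Gclm fell in COM+Met, by 0.97 ± 0.11 against COM (limma, adjusted p = 0.000166; exact two-sided permutation p = 0.00216) and by 1.30 ± 0.078 against NC (limma, adjusted p = 8.72e-09). The fall against COM was -1.04 without COM-4 to COM-6 and -0.91 without COM-1 to COM-3. In COM against NC it fell by 0.33 ± 0.11 (limma, adjusted p = 0.0263), which is close to the median of all genes tested, -0.27, and the call was lost without any single one of COM-4, COM-5, NC-2, NC-5 or NC-6 (adjusted p 0.0507 to 0.0589). Annotated neighbours share 296 (opposite strand) and 244 (a pseudogene on the same strand) of its 6291 exonic bases, and the counting could split reads among them.

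Slc7a11 (chromosome 3, 49892526 to 50443614, minus strand) encodes the light chain of the cystine and glutamate exchanger, which supplies cysteine for glutathione. It was at 127, 166, 116, 85.4, 75.8 and 73.7 FPKM across the NC samples in order, and at 162, 163, 171, 127, 127 and 159 FPKM across the COM samples. COM+Met ranged from 115 to 168 FPKM (median 128). The 3 groups overlapped, and NC-4 to NC-6 were the lowest of all samples.

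Slc7a11 rose in COM against NC by 0.55 ± 0.19 (limma, adjusted p = 0.0315; exact two-sided permutation p = 0.0346). The call was lost without any single one of NC-4, NC-5, NC-6, COM-1, COM-2 or COM-3 (adjusted p 0.0543 to 0.0728), and without NC-5 and NC-6 the difference was 0.32 (adjusted p = 0.171). Unlike those of Gclc and Gclm, its difference between COM+Met and COM did not pass (-0.18 ± 0.12, adjusted p = 0.344), although it did without COM-4 to COM-6 (-0.31, adjusted p = 0.0136). The differences between genes in this comparison were not tested. COM+Met against NC was 0.37 ± 0.18 (adjusted p = 0.0848), and without NC-2 it was 0.51 (adjusted p = 0.00877). It also passed with size factors (0.68, adjusted p = 0.00547) and with quantile normalisation (0.41, adjusted p = 0.0450).

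Gsr (chromosome 8, 33652523 to 33698163, plus strand) encodes glutathione reductase, which regenerates reduced glutathione with NADPH. It was at 94.2, 97.4, 96.2, 80.9, 123 and 119 FPKM in the NC samples, in order. In COM it was at 96.6, 108 and 108 FPKM in COM-1 to COM-3 and at 65.0, 61.4 and 47.3 FPKM in COM-4 to COM-6. COM+Met ranged from 37.6 to 49.6 FPKM (median 41.0), below every NC sample and below every COM sample but COM-6.

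The log2 difference of Gsr was -0.88 ± 0.19 in COM+Met against COM (limma, adjusted p = 0.0107) and -1.25 ± 0.099 in COM+Met against NC (adjusted p = 1.15e-07). The fall against COM was -1.30 without COM-4 to COM-6 and -0.45 (adjusted p = 0.0238) without COM-1 to COM-3. COM against NC did not pass (-0.38 ± 0.21, adjusted p = 0.141). It was 0.047 (adjusted p = 0.769) without COM-4 to COM-6 and -0.80 (adjusted p = 0.00186) without COM-1 to COM-3.

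Txnrd1 (chromosome 10, 82833951 to 82897712, plus strand) encodes cytosolic thioredoxin reductase. It ranged from 175 to 278 FPKM in NC (median 212), from 194 to 230 FPKM in COM (median 219) and from 140 to 198 FPKM in COM+Met (median 160). COM+Met overlapped the other groups only slightly, as its highest sample, COM+Met-1, exceeded COM-1 and 3 NC samples. The log2 difference was -0.40 ± 0.097 in COM+Met against COM (limma, adjusted p = 0.0161; exact two-sided permutation p = 0.00433), and it was alike without COM-4 to COM-6 (-0.40) and without COM-1 to COM-3 (-0.41). COM against NC was -0.0080 ± 0.12 (adjusted p = 0.958). COM+Met against NC passed at -0.41 ± 0.11 (adjusted p = 0.00467), where the median of all genes was -0.26, and with size factors it did not (-0.098, adjusted p = 0.466).

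Srxn1 (chromosome 2, 152105516 to 152111376, plus strand) encodes sulfiredoxin, which repairs over-oxidised peroxiredoxins. It ranged from 102 to 175 FPKM in NC (median 126), from 104 to 161 FPKM in COM (median 150) and from 112 to 148 FPKM in COM+Met (median 128), so that the 3 groups overlapped widely. No comparison passed, with log2 differences of 0.13 ± 0.15 in COM against NC (limma, adjusted p = 0.480), -0.14 ± 0.12 in COM+Met against COM (adjusted p = 0.456) and -0.013 ± 0.12 in COM+Met against NC (adjusted p = 0.926). The low value of COM-6 mattered, as COM+Met against COM was -0.23 (adjusted p = 0.0397) without it. With size factors Srxn1 was higher in COM+Met than in NC (0.30, adjusted p = 0.0430).

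Acod1, which makes itaconate, was at 13.4 to 271 FPKM in NC, 1305 to 1514 FPKM in COM and 1650 to 2153 FPKM in COM+Met. Within NC it was at 93.8 to 271 FPKM in NC-1 to NC-4 but at 13.4 to 18.2 FPKM in NC-5 and NC-6. The size of its rise from NC thus depended on the NC samples used. Its log2 difference was 4.17 ± 0.65 in COM against NC (limma, adjusted p = 0.000203) and 0.54 ± 0.099 in COM+Met against COM (adjusted p = 0.00408). COM-1 to COM-3, at 1431 to 1514 FPKM, lay above COM-4 to COM-6, at 1305 to 1356 FPKM, and all 6 lay above every NC sample.

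Among the partners and regulators of Nrf2, Bach1 and Nfe2 fell in COM and in COM+Met against NC. Of 18 tested (of 20 listed), 1 rose and 7 fell in COM against NC, with a median log2 difference of -0.20 beside -0.27 for all genes. For this and the lists below, 12.7% of all genes tested rose and 40.6% fell in COM against NC. The shares were 5.77% and 7.58% in COM+Met against COM, and 19.3% and 55.9% in COM+Met against NC. Bach1, the repressor that competes with Nrf2 at antioxidant response elements, fell by 1.35 ± 0.12 (limma, adjusted p = 2.99e-06). Nfe2, a related factor of blood cell precursors, fell by 2.69 ± 0.21, and Syvn1, a ubiquitin ligase of the endoplasmic reticulum, rose by 0.35 ± 0.12. With size factors 5 rose and 3 fell, where 2578 of all 10875 genes tested rose and 2544 fell.

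Of the 18 partners, 1 rose and 0 fell in COM+Met against COM (median 0.076). The gene that rose was Mafk, a small Maf protein that pairs with Nrf2 or Bach1 (0.59 ± 0.18, adjusted p = 0.0465). Against NC, 5 rose and 9 fell in COM+Met (median -0.27, beside -0.26 for all genes), and 8 rose and 7 fell with size factors. In that comparison 3893 of all 10769 genes tested rose and 3716 fell with size factors. Sqstm1 (p62), a known Nrf2 target that draws Keap1 into autophagy, rose by 1.12 ± 0.11, and Nfe2l1, a factor related to Nrf2, rose by 0.74 ± 0.11. Nfe2 fell by 3.33 ± 0.13 and Bach1 by 1.54 ± 0.090.

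Among other glutathione genes, 5 rose and 6 fell of 25 tested in COM against NC (median -0.042). Gstm2, a glutathione transferase, rose by 1.48 ± 0.35 and Glrx, glutaredoxin, by 1.36 ± 0.29, while the microsomal transferase Mgst3 fell by 2.12 ± 0.28 and Gstm5 by 1.28 ± 0.17. With size factors 12 rose and 5 fell. Between COM+Met and COM, 2 rose and 5 fell of 26 tested (median 0.030). Chac1, which degrades glutathione, rose by 0.84 ± 0.16 and the secreted peroxidase Gpx3 by 0.64 ± 0.19, whereas Mgst2 fell by 1.91 ± 0.40 and the transferase Gsta3 by 1.11 ± 0.29.

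Of the 26 glutathione genes, 9 rose and 12 fell in COM+Met against NC (median -0.13), while 11 rose and 6 fell with size factors. Gstm2 rose by 1.19 ± 0.30 and Chac1 by 0.84 ± 0.14, while Mgst2 fell by 2.48 ± 0.087 and Mgst3 by 1.69 ± 0.17. Transferases of the Gsta and Gstm families have close copies, so their single values are uncertain.

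In the thioredoxin and peroxiredoxin system, 4 rose and 9 fell of 17 tested in COM against NC (median -0.35), and with size factors 5 rose and 5 fell. The peroxidases Prdx1 (1.79 ± 0.18) and Prdx5 (1.71 ± 0.40) rose, and Msra, a methionine sulfoxide reductase (-1.27 ± 0.17), and Sesn1, a stress-induced sestrin (-0.97 ± 0.19), fell. Between COM+Met and COM, 3 rose and 2 fell of 16 (median -0.017). Txnip, the thioredoxin-binding protein, fell by 1.49 ± 0.095 (limma, adjusted p = 5.69e-06) and Prdx1 by 0.49 ± 0.12, while Txnrd3 (0.71 ± 0.17) and the mitochondrial thioredoxin Txn2 (0.48 ± 0.13) rose.

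Of these 16 genes, 5 rose and 7 fell in COM+Met against NC (median -0.078), led by Prdx5 (1.56 ± 0.24) and Prdx1 (1.30 ± 0.15) among the rises and Txnip (-2.28 ± 0.20) and Msra (-1.58 ± 0.12) among the falls. With size factors the balance turned, as 9 rose and 3 fell (median 0.23). Prdx1 has processed copies in the genome and its value is uncertain.

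Among the NADPH supply genes, which feed both Gsr and Txnrd1, Idh1 (cytosolic isocitrate dehydrogenase) and Tkt (transketolase) fell in COM and in COM+Met against NC. Of 8 tested, 1 rose and 4 fell in COM against NC (median -0.87), and 1 rose and 7 fell in COM+Met against NC (median -0.92). With size factors the rises and falls were 1 and 3 in COM and 1 and 5 in COM+Met. G6pdx, which opens the pentose phosphate pathway, rose by 0.38 ± 0.097 in COM and by 0.37 ± 0.053 in COM+Met. Idh1 fell by 1.50 ± 0.33 and Rpia by 1.47 ± 0.21 in COM, and in COM+Met Idh1 fell by 2.06 ± 0.10 and Tkt by 1.19 ± 0.066. Only 1 of the 8 passed in COM+Met against COM, where it fell (0 rose; median -0.17), namely Me1, malic enzyme, by 0.90 ± 0.13. The median of the list in that comparison was -0.67 without COM-4 to COM-6, where 0 rose and 5 fell, and 0.34 without COM-1 to COM-3, where 1 rose and 1 fell. Idh1 was at 68.3 to 70.1 FPKM in COM-1 to COM-3 and at 20.7 to 26.9 FPKM in COM-4 to COM-6.

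Of 10 heme and iron genes other than Hmox1, 3 rose and 4 fell in COM against NC (median -0.092), and 5 rose and 3 fell with size factors. The biliverdin reductase Blvrb (0.94 ± 0.29) and the ferritin heavy chain Fth1 (0.73 ± 0.15) rose, whereas the other biliverdin reductase, Blvra (-1.41 ± 0.22), and the iron exporter ferroportin, Slc40a1 (-0.78 ± 0.20), fell. With Met, 0 rose and Slc40a1 fell against COM by 1.12 ± 0.20 (median of the list -0.030). Against NC, 4 rose and 3 fell in COM+Met (median 0.18), and 6 rose and 3 fell with size factors, with Fth1 at 0.89 ± 0.065, Blvrb at 0.36 ± 0.081, Slc40a1 at -1.90 ± 0.14 and Blvra at -1.37 ± 0.093. Fth1 has many pseudogenes and its value is uncertain.

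Of 21 genes of detoxification and oxidant removal tested, 6 rose and 7 fell in COM against NC (median -0.12). With size factors the balance turned, as 9 rose and 5 fell (median 0.19). The mitochondrial superoxide dismutase Sod2 rose by 1.97 ± 0.24 and the glucuronosyltransferase Ugt1a6a by 1.70 ± 0.45, and the metallothioneins Mt2 and Mt1 fell by 2.97 ± 0.22 and 2.87 ± 0.18. Between COM+Met and COM, 1 rose and 5 fell (median -0.10). Akr1b8, an aldo-keto reductase, fell by 1.47 ± 0.19 and the alcohol dehydrogenase Adh7 by 1.27 ± 0.14, while Cyb5r1 rose by 0.53 ± 0.13.

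Of 20 tested in that list, 6 rose and 11 fell in COM+Met against NC (median -0.39), and 7 rose and 8 fell with size factors. Sod2 (1.86 ± 0.23) and Ugt1a6a (1.64 ± 0.31) rose and Mt1 (-2.69 ± 0.20) and Mt2 (-2.51 ± 0.24) fell. Genes of the Ugt1a and metallothionein families share sequence or exons, which makes their single values uncertain.

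**Figure D5:**
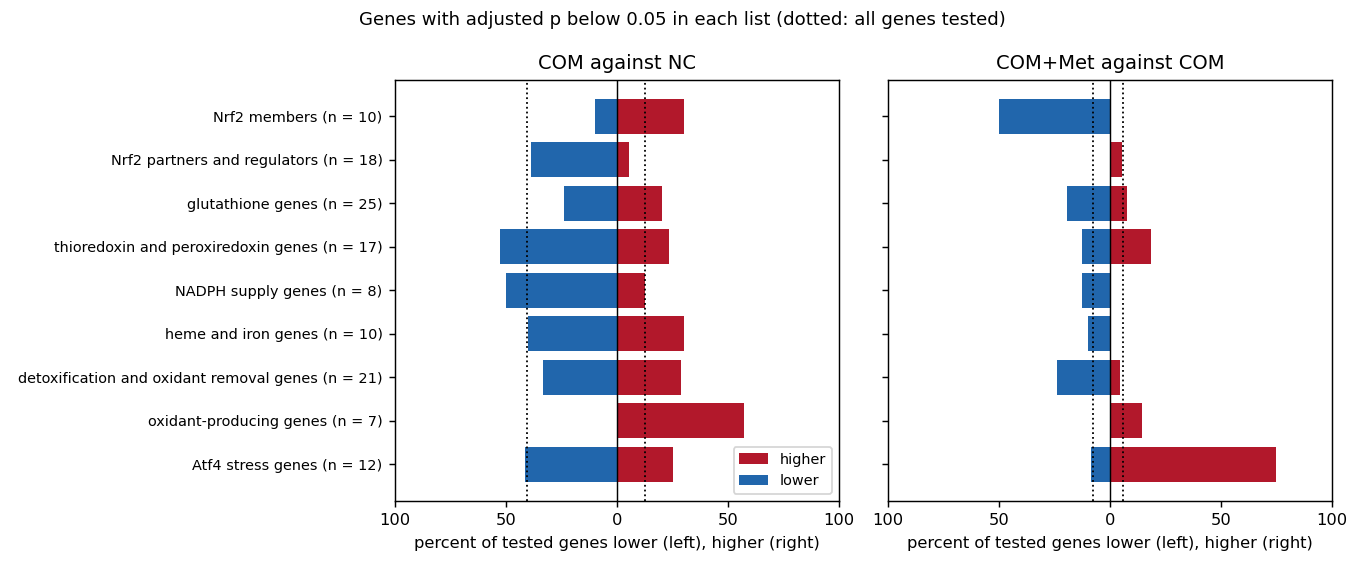
Percent of the tested genes of each list that were higher (red, to the right) or lower (blue, to the left) at an adjusted p below 0.05, in COM against NC and in COM+Met against COM; the number tested in COM against NC stands beside each name, and the dotted lines give the percent over all genes tested. In COM+Met against COM, 5 of 10 members were lower and 9 of 12 Atf4 stress genes were higher.

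Of 7 genes that make oxidants and could be tested, 4 rose and 0 fell in COM against NC (median 0.66), and 5 rose and 0 fell with size factors. Nos2, the inducible nitric oxide synthase, was at 0.044 to 3.55 FPKM in NC, at 4.67, 5.20 and 4.42 FPKM in COM-1 to COM-3 and at 260, 201 and 170 FPKM in COM-4 to COM-6. Its rise of 3.84 ± 1.07 thus rested for most of its size on COM-4 to COM-6. Cybb, the catalytic subunit of the phagocyte NADPH oxidase, rose by 1.34 ± 0.20. In COM+Met against COM, 1 rose and 0 fell (median 0.066), the gene that rose being Ncf1, an organiser subunit of the oxidase (0.41 ± 0.10). Against NC, 6 rose in COM+Met (median 0.97), with Nos2 at 5.01 ± 0.33 and Cybb at 1.38 ± 0.17.

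Atf4, the factor of the integrated stress response that also acts on Slc7a11 and Chac1, and its stress targets mostly rose in COM+Met against COM. Of 12 tested, 9 rose and 1 fell (median 0.61, beside 0.0033 for all genes). Ddit3 (CHOP) rose by 1.22 ± 0.24 and Trib3, a pseudokinase, by 1.09 ± 0.25, while Ddit4, an inhibitor of mTORC1, fell by 1.06 ± 0.30. The counts were 7 and 1 without COM-4 to COM-6 and 10 and 0 without COM-1 to COM-3.

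In COM against NC, 3 of these 12 rose and 5 fell (median 0.24), and 7 rose and 3 fell with size factors. Ddit3 rose by 1.57 ± 0.24 and Mthfd2, of mitochondrial one-carbon metabolism, by 1.21 ± 0.17. Psat1, of serine synthesis, fell by 2.57 ± 0.29 and the amino acid transporter Slc7a5 by 1.37 ± 0.21. Against NC, 6 rose and 4 fell in COM+Met (median 0.43), with Ddit3 at 2.79 ± 0.087, Trib3 at 1.60 ± 0.11, Psat1 at -2.04 ± 0.26 and Slc7a5 at -1.03 ± 0.11.

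Counts over the lists also moved with the COM samples used. For COM+Met against COM without COM-4 to COM-6, 1850 of all 10373 genes tested rose and 4499 fell. There 3 of 18 partners and regulators rose and 8 fell, and 5 of 26 glutathione genes rose and 12 fell. Of 16 thioredoxin and peroxiredoxin genes, 6 rose and 8 fell. In the same fit 1 of 10 heme and iron genes rose and 5 fell, and 2 of 21 detoxification genes rose and 12 fell. Of 7 oxidant-producing genes, 2 rose and 3 fell. Without COM-1 to COM-3, 1646 of all 10211 genes tested rose and 793 fell. The rises and falls there were 1 and 0 of 18 partners, 4 and 4 of 26 glutathione genes and 5 and 1 of 16 in the thioredoxin list. They were 2 and 1 of 10 heme and iron genes, 2 and 4 of 20 detoxification genes and 1 and 1 of 7 oxidant-producing genes. Mgst2, as an example, was at 65.8 to 79.1 FPKM in COM-1 to COM-3 and at 15.7 to 20.1 FPKM in COM-4 to COM-6.

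Over all genes tested in COM against NC, 1939 of 10958 rose and 4016 fell without COM-4 to COM-6. Without COM-1 to COM-3, 1274 of 10900 rose and 5475 fell, and without NC-5 and NC-6, 1156 of 10829 rose and 3502 fell. In COM against NC, the 25 glutathione genes gave 10 rises and 6 falls without COM-4 to COM-6. They gave 5 and 9 without COM-1 to COM-3, and 4 and 5 without NC-5 and NC-6. The thioredoxin list of 17 gave 5 and 6, 1 and 9, and 3 and 7 under these exclusions. The detoxification list gave 9 and 5 of 21, 3 and 7 of 20, and 5 and 4 of 21. Among partners and regulators they were 3 and 7, 0 and 8, and 0 and 6. NADPH supply genes gave 2 and 5, 1 and 5, and 1 and 2, and heme and iron genes 5 and 1, 2 and 4, and 2 and 2. Oxidant-producing genes gave 6 and 0, 4 and 1, and 3 and 0, and Atf4 stress genes 6 and 3, 3 and 5, and 3 and 3. Without NC-5 and NC-6 in COM+Met against NC, 2178 of all 10705 genes tested rose and 6030 fell. Rises and falls there were 4 and 10 of 18 partners, 11 and 12 of 26 glutathione genes and 4 and 7 of 16 in the thioredoxin list. They were 1 and 7 of 8 NADPH supply genes, 5 and 3 of 10 heme and iron genes and 6 and 12 of 20 detoxification genes. Of 12 Atf4 stress genes, 7 rose and 3 fell.

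For the members whose group means differed by at least 1 on the log2 scale, the genes with the most similar course were those with the smallest root-mean-square difference of centred log2(FPKM + 1) values over the 18 samples and 10751 genes. Gclc was nearest to Cd53 (0.136, where the spread of Gclc itself was 0.465), Gsr to Dock5 (0.156), Myl12a (0.174) and Csrp2 (0.183; spread of Gsr 0.602), and Gclm to Ywhaz (0.196), Kcnn3 (0.216) and Ndrg2 (0.217; spread 0.573). Nqo1 was nearest to a gene model without a name (0.327), then to Ltb4r1 (0.346) and Angptl2 (0.349; spread of Nqo1 1.24). Its differences were larger than those of the other members, as was its spread. Hmox1 was nearest to a gene model without a name (0.220) and to Pla1a (0.221; spread 0.693). No other member was among the candidates, since only genes outside the 10 were searched.

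Markers of other cells moved with the groups. Of 16 neutrophil markers, 11 averaged 1 FPKM or more in NC, 8 in COM and 7 in COM+Met, and the list summed to 552 to 1077 FPKM in NC, 1237 to 1866 FPKM in COM and 738 to 860 FPKM in COM+Met. Lcn2, which activated macrophages also express, was the largest of them in COM and COM+Met, and Mpo, Ctsg, Elane and Retnlg were at 0 in all samples of both groups. In COM+Met against COM, 0 rose and 5 fell of 7 tested (median -1.29), in COM against NC 2 rose and 4 fell of 10 (median -0.92), and in COM+Met against NC 1 rose and 6 fell of 10 (median -1.72).

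Of 10 stromal markers, 8 averaged 1 FPKM or more in NC, 6 in COM and 3 in COM+Met, with sums of 23.9 to 81.9, 6.85 to 43.2 and 4.49 to 9.59 FPKM. In COM+Met against COM, 0 rose and 4 fell of 6 tested (median -1.08), and against NC 1 rose in each of COM and COM+Met while 5 and 6 fell of 7. Both tubular markers tested against NC fell in COM and in COM+Met (medians -2.90 and -3.23), and 0 could be tested in COM+Met against COM. Of the 10 macrophage markers, 4 rose and 1 fell in COM against NC (median 0.25), 1 rose and 1 fell in COM+Met against COM (median -0.010) and 5 rose and 1 fell in COM+Met against NC (median 0.37). In such bulk samples a lower share of a cell type and less RNA per cell cannot be told apart, and the part of other cells in the falls of Nqo1, Gclc, Gclm, Gsr and Txnrd1 was not tested.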

How the data were processed

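RNA of 18 BMDM samples (NC, COM and COM+Met, 6 each) had been made into TruSeq RNA libraries. The authors deposited FPKM values for 25926 genes, 1 column per sample, 3890 of the rows without an Ensembl ID. The builds mm8 and mm9 and Bowtie 0.12.2 stand in the submitters' processing notes, with no role given. The program behind FPKM, with its annotation, is not given in the sources used here, and the kit's strand setting is not stated. Depth is unknown from FPKM, so no counting interval was made.

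Groups came from the labels, and 0 columns were unmapped or identical. log2(FPKM + 1) was fitted with limma 3.58.1 (lmFit, eBayes with trend) in R 4.3.3, in the 12 samples of each comparison, for genes averaging 1 FPKM or more there. The Benjamini-Hochberg adjusted p threshold was 0.05 over all genes tested. Fold changes on this scale are understated for low genes. Single genes also had a two-sided exact permutation test (smallest p 0.00216). The permutation test and other steps used matplotlib 3.10.9, numpy 2.4.6 and pandas 2.3.3 under Python 3.11.15, and the fit was tested on simulated data.

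Alternatives were pseudocounts of 0.1 and 5, no filter or 5 FPKM, TPM, quantile normalisation, size factors (median of ratios), the replicate block, 18 samples together, sample weights and samples left out. Named genes were the 10 members, Acod1, per list and comparison up to 2 largest rises and 2 largest falls that passed, and the 3 genes nearest to a member. Lists of other pathway genes and of macrophage, tubular, neutrophil and stromal markers were written by hand, and the result of 1 listed gene is not reported here. The members and lists were chosen with earlier results of these data known. GENCODE M21 and RefSeq positions are on GRCm38, not the builds of the notes.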

Additional observations from a re-analysis of the deposited data

Results flagged for a closer look

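In groups of 6, the highest or lowest sample was compared with its nearest neighbour relative to the range of the group (Dixon's test at its 95% critical value). Of 33 groups (the 10 members and Acod1 in 3 groups each), 7 had a sample beyond it, where chance gives about 1 in 20. COM-6 stood out as the highest COM sample for Nfe2l2 (249 FPKM, the next 142) and Gclc (40.0 FPKM, the next 27.4) and as the lowest for Srxn1 (104 FPKM, the next 141). COM+Met-1 stood out as the highest COM+Met sample for Nqo1 (32.3 FPKM, the next 16.8), Gclc (15.3 FPKM, the next 12.1) and Gsr (49.6 FPKM, the next 42.0). It was the lowest COM+Met sample for Acod1 (1650 FPKM, the next 2078). What sets COM-6 and COM+Met-1 apart was not tested.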

How the results depend on the processing

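The falls of Nqo1, Gclc, Gclm and Gsr in COM+Met against COM and against NC passed under every alternative run. In COM against NC, by contrast, members higher ranged from 0 to 3 with 1 sample left out, and were 0 without NC-5 and NC-6 and 1 without COM-1 to COM-3. Members lower ranged from 0 to 1 with 1 sample left out, and were 0 with size factors, with quantile normalisation and without NC-5 and NC-6, and 3 without COM-1 to COM-3. Of all genes tested, 1274 of 10900 were higher and 5475 lower without COM-1 to COM-3. Without NC-5 and NC-6, 1156 of 10829 were higher and 3502 lower. With 1 sample left out, 1263 to 1687 genes were higher and 3912 to 4824 lower. Over all genes in that comparison, 2578 were higher and 2544 lower with size factors, 2412 and 2827 with quantile normalisation, and 2407 were higher with sample weights. In COM+Met against COM, genes higher numbered 953 with quantile normalisation, 2041 with sample weights, 1850 without COM-4 to COM-6, 1646 without COM-1 to COM-3 and 393 to 1101 with 1 sample left out, where leaving out COM-6 gave the most and COM+Met-2 the fewest. Genes lower numbered 519 of 7080 tested with a filter of 5 FPKM, beside 786 of 10364 with the filter of 1 FPKM. They numbered 4639 with sample weights, 4499 without COM-4 to COM-6 and 541 to 1652 with 1 sample left out, the most without COM-6. With sample weights 3 members were higher and 7 lower, where 2041 of all 10364 genes tested were higher and 4639 lower. Without COM-4 to COM-6, 3 members were higher and 7 lower, where 1850 of 10373 genes were higher and 4499 lower. In COM+Met against NC, 3893 genes were higher and 3716 lower with size factors, 3754 and 3894 with quantile normalisation, and 5 members were higher with size factors. Differences that passed with the opposite sign were those of Nfe2l2 in COM+Met against COM (0.13 with sample weights, 0.12 without COM-4 to COM-6), Hmox1 in the same comparison (-0.78 without COM-1 to COM-3) and Srxn1 in COM+Met against NC (0.30 with size factors); sign changes of differences that passed in neither fit were not counted. Beyond the samples or scaling named, the cause was not tested. Same-numbered samples did not deviate together (correlations -0.222 to 0.057, 0 of 6 pairs over 0.1 in each comparison). With the replicate block, 288 genes were higher and 456 lower in COM+Met against COM, the call of Txnrd1 there was lost (adjusted p = 0.0867), as was that of Hmox1 in COM against NC (adjusted p = 0.0649), and no other call on a member changed.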
